A study of Sus scrofa with 15 samples.

Results

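The genes described here are the cytosolic translation factors and the mitochondrial ribosomal proteins measured in pig Longissimus muscle, the long muscle of the back. They were taken by name, as array probes whose gene name begins with EIF and a digit from 1 to 6, with EEF and the digit 1 or 2, or with MRPL or MRPS and a digit, leaving out the EIF2AK kinases and the EIF4EBP proteins. A probe also had to be well above background, by the scanner software's flag, on at least 7 of the 15 arrays. The names matched 79 of 43603 probes, and all 79 passed the filter on dim probes, 77 of them on all 15 arrays. They stand for 19 of the 36108 gene names on the array, of which 12 are cytosolic (62 probes) and 7 belong to the mitochondrial ribosome (17 probes). The name pattern and the filter used no difference between animals or lines, but the list was chosen with earlier results of these data known.

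The pigs came from strains that differ in residual feed intake, the part of feed intake that growth and maintenance do not account for. The low_RFI strain (RFIneg, n = 7 pigs) eats less than predicted, and the high_RFI strain (RFIpl, n = 8 pigs) eats more. All pigs were sampled at 20 kg body weight and had free access to feed, and no age or sex is in the labels. Each pig's total RNA was hybridised to its own 1-colour Agilent array, with 26908 to 34644 probes per array passing that flag. Of 12 skeletal muscle markers looked up by name, 11 were on the array, and all 11 were well above background on all 15 arrays. In RNA from whole tissue, fewer cells of a type and less RNA per cell cannot be told apart.

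Protein synthesis in the cytosol begins when the EIF4F complex opens the capped end of an mRNA and EIF2, recharged by EIF2B, brings the initiator tRNA to the small ribosomal subunit with the help of EIF3. EEF1A then delivers each further aminoacyl-tRNA to the ribosome. Mitochondria use a separate ribosome, whose protein subunits (MRPL for the large and MRPS for the small) are encoded in the nucleus and made in the cytosol, and which makes only the few respiratory chain proteins encoded by mitochondrial DNA. In skeletal muscle both systems matter for protein deposition and for oxidative capacity.

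Not every name that the pattern matched is a translation factor. In the RefSeq gene table of the pig, EIF2C1 and EIF2C2 carry the current symbols AGO1 and AGO2, which are the Argonaute proteins of RNA silencing, and EIF4GI is EIF4G1. All 19 names were found in that table, and these 3 differ from the current symbol. EIF4ENIF1 is a transporter that binds the cap-binding protein EIF4E. Summaries of the cytosolic group are therefore also given for the 9 names left without EIF2C1, EIF2C2 and EIF4ENIF1, a reduction chosen after the data were seen.

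All probes were 60 bases long, and those below are shown as examples of what the array reads of the elongation factor, the helicases, EIF3E and the ribosomal proteins described next. They are the array's design sequences, 5′ to 3′, each with the base of the design transcript at which it starts. The values given later for EIF3E and MRPL52 come from the probes at bases 906 and 352. For the other genes they come from a brighter probe further along the transcript, at base 1593 for EEF1A1, 1131 for EIF4A1, 1616 for EIF4A2, 1377 for EIF4A3, 832 for MRPL18 and 785 for MRPL24. Capitals mark a run of 50 bases shared by a pair of printed probes.
EEF1A1 from base 361: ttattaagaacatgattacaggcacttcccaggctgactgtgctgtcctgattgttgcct
EIF4A1 from base 491: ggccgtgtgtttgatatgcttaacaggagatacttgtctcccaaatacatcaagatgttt
EIF4A2 from base 512: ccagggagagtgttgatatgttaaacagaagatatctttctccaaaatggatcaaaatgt
EIF4A3 from base 588: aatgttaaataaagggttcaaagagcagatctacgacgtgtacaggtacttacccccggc
EIF3E from base 906: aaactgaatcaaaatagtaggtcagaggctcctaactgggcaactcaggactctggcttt
MRPL52 from base 351: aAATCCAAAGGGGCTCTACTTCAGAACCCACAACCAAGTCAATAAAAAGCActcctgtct
MRPL52 from base 352: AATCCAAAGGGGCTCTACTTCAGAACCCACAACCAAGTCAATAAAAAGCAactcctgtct
MRPL18 from base 467: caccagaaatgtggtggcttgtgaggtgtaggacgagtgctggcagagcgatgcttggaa
MRPL24 from base 459: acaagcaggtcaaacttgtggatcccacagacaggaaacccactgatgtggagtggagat

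Probes of 1 gene are not independent measurements, because they read the same RNA and some read the same bases. Among the cytosolic probes, 25 shared a run of at least 20 bases with another probe, and among the mitochondrial ones 5 did. No such run was shared between probes of different genes, the near-identical helicases EIF4A1 and EIF4A2 included. GC content ran from 35 to 55%, with a median of 41.7% for the cytosolic and 45% for the mitochondrial probes.

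The first comparison was between the lines. The level of a probe is log2 of the scanner's processed signal, less the 75th percentile of that array, a difference is low_RFI minus high_RFI on that log2 scale, and limma was fitted over all 31984 tested probes with Benjamini-Hochberg adjustment. No translation factor or mitochondrial ribosomal protein differed between the lines at an adjusted p under 0.05. The background was 0% of all tested probes, so a count of 0 among 79 is what the whole array gave. At an unadjusted p under 0.05 there were 2 of 62 cytosolic probes (3.23%), both of EEF1A1, and 2 of 17 mitochondrial probes (11.8%), both of MRPL52, against 6.67% of all probes. No member's lines were free of overlap, against 0.0782% of all probes.

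Most members were slightly higher in the low_RFI line, none past the test. Taking for each gene the brightest of its tested probes (highest mean over the arrays), 8 of 12 cytosolic and 4 of 7 mitochondrial genes were higher in low_RFI pigs, against 53.7% of all gene names; the mitochondrial share, 57.1%, was near that of the array. The median difference was 0.074 for the cytosolic genes and 0.016 for the mitochondrial genes, against 0.013 over all gene names. Without the Argonautes and EIF4ENIF1, 8 of 9 cytosolic genes were higher in low_RFI pigs, with a median of 0.10; that reduction, made after the values were seen, takes out 3 of the 4 cytosolic genes that were lower in low_RFI, and it keeps EIF4A3, so the larger share follows from the choice. Over probes, 55 of 62 cytosolic and 13 of 17 mitochondrial probes were higher in low_RFI pigs, against 53.9% of all probes; EEF1A1, EIF3E and EIF4A2 hold 18, 14 and 13 of the 62. The median SD over the 15 pigs was 0.20 in both groups of genes, against 0.29 over all gene names, each by its brightest probe; the comparison was not matched on level.

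**Figure D1:**
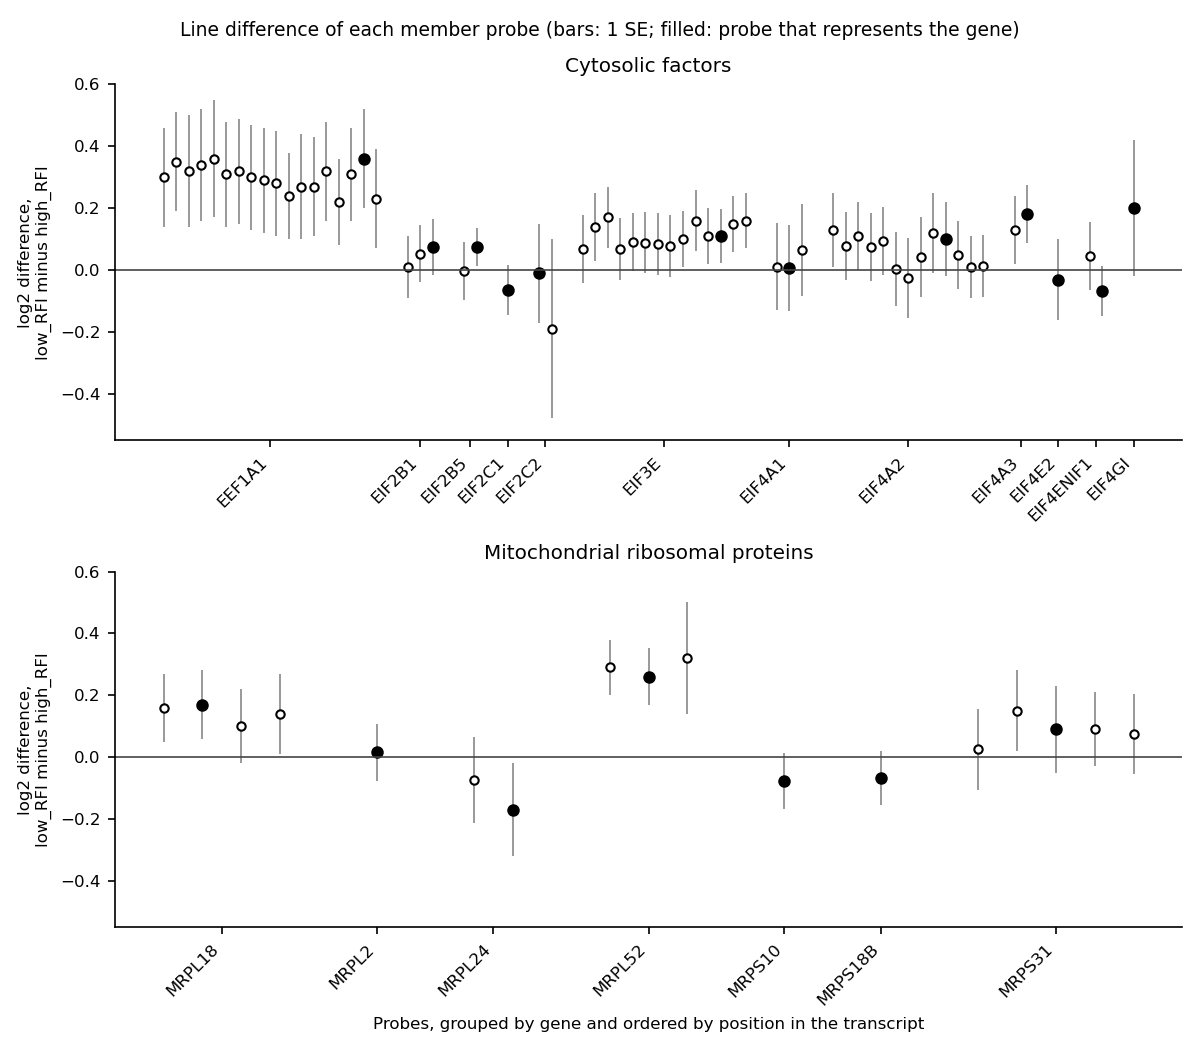
Difference between lines of each of the 79 probes, in log2 units (low_RFI minus high_RFI, bars 1 SE), for the cytosolic factors above and the mitochondrial ribosomal proteins below; the filled point is the probe that represents the gene. All 18 EEF1A1 probes lie between 0.22 and 0.36 and all 3 MRPL52 probes between 0.26 and 0.32, while both MRPL24 probes lie below 0.

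Among the elongation factors EEF1A1 alone was measured under the names searched; it is the GTPase that carries aminoacyl-tRNA to the ribosome. Its level ran from 7.63 through a median of 7.84 to 8.23 in low_RFI pigs and from 7.06 through 7.66 to 8.09 in high_RFI pigs. The lines overlapped, but low_RFI replicates 1, 3 and 5 lay above every high_RFI pig, and high_RFI replicates 2, 4 and 7 lay below every low_RFI pig. The low_RFI pig was the higher of the pair in 42 of 56 pairs of pigs from different lines. The difference was 0.36 ± 0.16 (SE, n = 7 and 8), or 1.28-fold, with a 95% interval of 0.0094 to 0.71. Its unadjusted limma p was 0.0448 and its adjusted p was 0.736, so the difference did not pass the test over the array.

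The 18 EEF1A1 probes all were higher in low_RFI pigs, by 0.22 to 0.36. They followed one another closely from pig to pig, with a median correlation of 0.96 and a lowest of 0.89 over 153 pairs of probes. The difference was not even across slides, each of which held pigs of both lines. It was -0.058, 0.57, 1.07 and -0.00037 on slides 1 to 4, so that it lay on slides 2 and 3. On slide 2 the only low_RFI pig was replicate 1 (8.22), set against high_RFI replicates 2 (7.21) and 5 (8.09). The pigs of slides 1 and 4 lay between 7.63 and 7.86 in both lines. In mature muscle fibres the closely related EEF1A2 is the main form of this factor. EEF1A2 was not analysed here, and whether the EEF1A1 probes also bind its RNA was not tested.

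EEF1A1 was set beside marker lists of muscle and of other cell types, none of which had a gene called between the lines. Its correlation with the mean of the 11 muscle markers was r = -0.61 over 15 pigs (permutation p = 0.0163, adjusted p = 0.196 over 12 correlations), with rho = -0.60 (permutation p = 0.0209, adjusted p = 0.126). Without the 2 pigs farthest from the median of the markers, r was -0.62, within the array-number runs described below it was -0.58 and -0.61, and within the low_RFI and high_RFI lines -0.75 and -0.62. With the mean of 5 measured leukocyte markers of 8, r was 0.54 (permutation p = 0.0394, adjusted p = 0.236) and rho 0.66 (permutation p = 0.0088, adjusted p = 0.106). Without the 2 farthest pigs it was 0.63, within the runs 0.71 and 0.45, and within the lines 0.19 in low_RFI and 0.84 in high_RFI pigs. With the other lists EEF1A1 had r between -0.23 (endothelium) and 0.33 (nerve and Schwann cell). The 12 correlations also included MRPL52 with the same lists, at r between -0.43 (leukocyte) and 0.24 (skeletal muscle). None of the 12 passed the adjustment.

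The marker means themselves overlapped widely between the lines. Relative to the mean of all pigs, the muscle markers lay from -0.17 to 0.12 in low_RFI and from -0.22 to 0.18 in high_RFI pigs. The leukocyte markers lay from -0.84 to 1.31 and from -0.67 to 1.43, and 3 of the 5 (CD14, CD163, CD3D, CD3E and LYZ) were well above background on all 15 arrays. Line differences of all marker means lay between -0.11 (adipocyte) and 0.22 (nerve and Schwann cell). The part of other cell types in the EEF1A1 values was not tested.

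**Figure D2:**
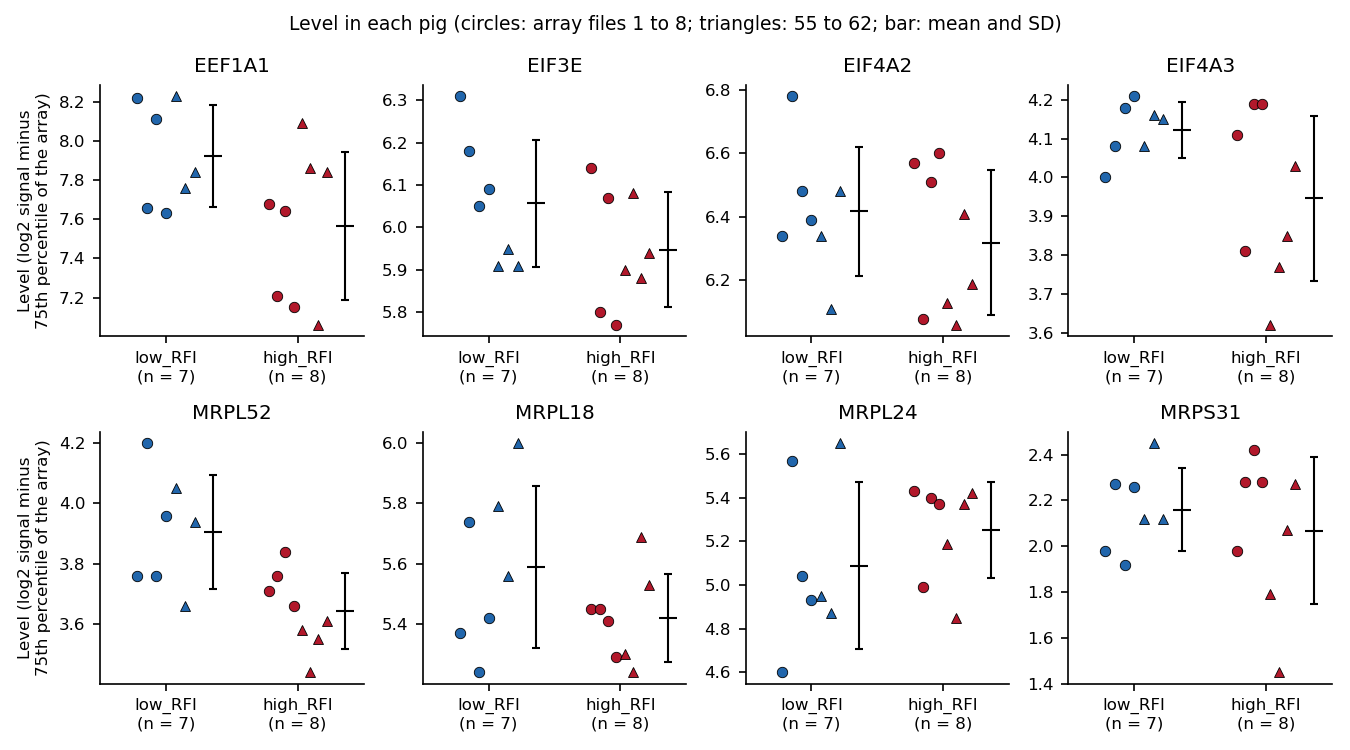
Level of 8 genes in each pig (log2 signal minus the array's 75th percentile; low_RFI blue, high_RFI red; circles for array files 1 to 8, triangles for 55 to 62; the bar is the mean and SD of the line). In every panel the lines overlap; in the MRPL52 panel 4 low_RFI pigs lie above all high_RFI pigs, and in the EEF1A1 panel 3 do.

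EIF3E, a subunit of the EIF3 complex that holds the small ribosomal subunit during initiation, was measured by 14 probes, and all 14 were higher in low_RFI pigs, by 0.069 to 0.17. The level ran from 5.91 through 6.05 to 6.31 in low_RFI pigs and from 5.77 through 5.92 to 6.14 in high_RFI pigs. Low_RFI replicates 1 and 2 were above every high_RFI pig, and 4 high_RFI pigs were below every low_RFI pig. The difference was 0.11 ± 0.086 (SE; 95% interval -0.076 to 0.29; limma adjusted p = 0.917). It was 0.21 among array files 1 to 8 and -0.030 among files 55 to 62. On slides 1 to 4 it was -0.047, 0.46, 0.15 and -0.0087, and slide 2 held low_RFI replicate 1 as its only low_RFI pig. Without that pig the difference was 0.065. The 14 probes correlated with a median r of 0.87 over 91 pairs.

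Among the helicases of the EIF4A family, EIF4A1 and EIF4A2 differed little between the lines. EIF4A1 and EIF4A2 are helicases of the EIF4F complex, and EIF4A3 is the related core protein of the exon junction complex, which marks spliced mRNA. EIF4A2 ran from 6.11 through 6.39 to 6.78 in low_RFI and from 6.06 through 6.30 to 6.60 in high_RFI pigs, a difference of 0.10 ± 0.12 (SE, limma adjusted p = 0.962), with 12 of 13 probes higher in low_RFI. EIF4A1 ran from 0.65 through 1.32 to 1.62 and from 0.99 through 1.15 to 1.41, a difference of 0.0072 ± 0.14. The spread was wider in low_RFI (SD 0.39) than in high_RFI pigs (SD 0.13), with low_RFI replicates 1, 2 and 5 below all high_RFI pigs and replicates 3, 4 and 7 above all of them.

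EIF4A3 showed the opposite spread. Low_RFI pigs lay between 4.0 and 4.21 (SD 0.073), and high_RFI pigs between 3.62 and 4.19 (SD 0.21). Of the high_RFI pigs, 4 fell below every low_RFI pig (replicates 2, 5, 6 and 7), and the other high_RFI pigs fell within the low_RFI range. The difference was 0.18 ± 0.094 (SE; 95% interval -0.024 to 0.38; limma adjusted p = 0.801), and both probes were higher in low_RFI.

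EIF2B1 and EIF2B5, the alpha and epsilon subunits of the factor that recharges EIF2 with GTP, were each 0.074 higher in low_RFI pigs. For EIF2B5, whose subunit holds the exchange activity, low_RFI pigs ran from 1.60 through 1.68 to 1.76 and high_RFI pigs from 1.52 through 1.62 to 1.71. Its SD over 15 pigs, 0.073, was the smallest of the cytosolic genes. In 45 of 56 pairs the low_RFI pig was higher, but the difference of 0.074 ± 0.062 had an interval of -0.058 to 0.21. Its second probe showed -0.0031 and did not follow the first (r = -0.018 over 15 pigs), so the EIF2B5 value rests on 1 probe. EIF2B1 was higher in low_RFI with all 3 probes (0.011 to 0.074; limma adjusted p = 0.962 for the representing probe).

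EIF4GI, the scaffold that joins cap-binding protein, helicase and EIF3, was measured by 1 dim probe that was well above background on 14 of 15 arrays. It had the largest SD over pigs of the cytosolic genes, 0.46. The difference was 0.20 ± 0.22 (SE; 95% interval -0.27 to 0.68; limma adjusted p = 0.956), and it was -0.085 with another background correction. EIF4E2, a cap-binding protein linked to repression of translation, differed by -0.031 ± 0.13. The Argonautes EIF2C1 and EIF2C2 differed by -0.065 ± 0.082 and -0.011 ± 0.16, and EIF4ENIF1 by -0.069 ± 0.081, with its other probe at 0.045. EIF2C2 was also dim, with low_RFI and high_RFI means of -3.96 and -3.95. Its other probe, well above background on 12 of 15 arrays, gave -0.19 ± 0.29 and correlated with the first at r = 0.40. None of these 5 names had an unadjusted p under 0.05; the smallest was 0.372, of EIF4GI.

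Within the mitochondrial ribosome the large-subunit protein MRPL52 differed most. It belongs to the proteins that the mitochondrial ribosome has and the bacterial one lacks. Its level ran from 3.66 through a median of 3.94 to 4.20 in low_RFI pigs and from 3.44 through 3.64 to 3.84 in high_RFI pigs. Low_RFI replicates 2, 4, 5 and 7 lay above every high_RFI pig and high_RFI replicates 5, 6, 7 and 8 below every low_RFI pig, and low_RFI was higher in 48 of 56 pairs. The difference was 0.26 ± 0.092 (SE, n = 7 and 8), or 1.2-fold, with a 95% interval of 0.065 to 0.46. The unadjusted limma p was 0.0124 and the adjusted p 0.596.

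The other MRPL52 probes pointed the same way. The probe that starts 1 base earlier, at base 351 in the sequences above, gave 0.29 ± 0.089 (SE). Its limma p was 0.00539 unadjusted, the smallest of any member, and 0.522 adjusted. The third MRPL52 probe lies apart from these, at base 712, and gave 0.32 ± 0.18 (adjusted p = 0.81). It was much dimmer, with low_RFI and high_RFI means of -0.074 and -0.39, against 3.91 and 3.65 for the representing probe. Its difference was less even across slides, at 0.077, -0.0052, 0.56 and 0.65 on slides 1 to 4. The lowest correlation between MRPL52 probes was 0.58. On slides 1 to 4 the difference of the representing probe was 0.36, 0.089, 0.30 and 0.23, above 0 on each. The value of slide 2 rests on low_RFI replicate 1 as its only low_RFI pig. The difference was 0.18 among array files 1 to 8 and 0.34 among files 55 to 62. Leaving out each pig in turn kept it between 0.21 and 0.30.

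The other large-subunit proteins went both ways. MRPL18 ran from 5.24 through 5.56 to 6.0 in low_RFI and from 5.24 through 5.43 to 5.69 in high_RFI pigs, with all 4 probes higher in low_RFI and a difference of 0.17 ± 0.11 (SE, limma adjusted p = 0.874). Low_RFI replicates 2, 5 and 7 were above every high_RFI pig. MRPL24 was the one gene of either group whose difference was below -0.10. It ran from 4.60 through 4.95 to 5.65 in low_RFI and from 4.85 through 5.37 to 5.43 in high_RFI pigs, a difference of -0.17 ± 0.15 (SE; 95% interval -0.49 to 0.16; adjusted p = 0.941), with both probes lower in low_RFI; the MRPL24 probe printed above gave -0.074 ± 0.14.

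MRPL24 had the largest SD over pigs among the mitochondrial genes, 0.31, and the low_RFI line split: replicates 2 and 7 lay above all high_RFI pigs, and the other 5 low_RFI pigs lay at 5.04 or below. Without low_RFI replicate 1, the lowest pig, the difference was -0.087. Without low_RFI replicate 7, the highest, it was -0.26. MRPL2, a protein of the large subunit's catalytic core, differed by 0.016 ± 0.092, with levels from 1.86 to 2.23 and from 1.72 to 2.23.

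Small-subunit proteins showed no common direction. MRPS10 differed by -0.077 ± 0.091, MRPS18B by -0.069 ± 0.087 and MRPS31 by 0.090 ± 0.14, with limma adjusted p of 0.962, 0.968 and 0.98. All 5 MRPS31 probes were higher in low_RFI, by 0.025 to 0.15. MRPS31, which the bacterial ribosome lacks, ran from 1.92 to 2.45 in low_RFI and from 1.45 to 2.42 in high_RFI pigs. The lowest of these was high_RFI replicate 6, and without that pig the difference was 0.0025. The median difference was 0.091 over the 4 large-subunit genes and -0.069 over the 3 small-subunit genes; the difference between the subunits was not tested.

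The pigs were also described one by one, by the mean deviation of a group's genes from their means over the 15 pigs. For the cytosolic genes this mean lay from -0.082 to 0.13 in low_RFI and from -0.21 to 0.10 in high_RFI pigs, with an SD within lines of 0.091. The lowest was high_RFI replicate 7, in which EEF1A1, itself part of this mean, was at its lowest (-0.68). EIF4GI (-0.68) and EIF2C2 (-0.62), both read by dim probes, were also far below their means in that pig, while EIF2C1 (0.10) and EIF4A2 (0.048) lay above theirs. For the mitochondrial genes it lay from -0.19 to 0.23 in low_RFI and from -0.31 to 0.092 in high_RFI pigs, with an SD within lines of 0.15. High_RFI replicates 6 and 5 (-0.31 and -0.16) stood below the other high_RFI pigs, all of which lay between 0.023 and 0.092, and low_RFI replicate 7 was the highest pig.

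**Figure D3:**
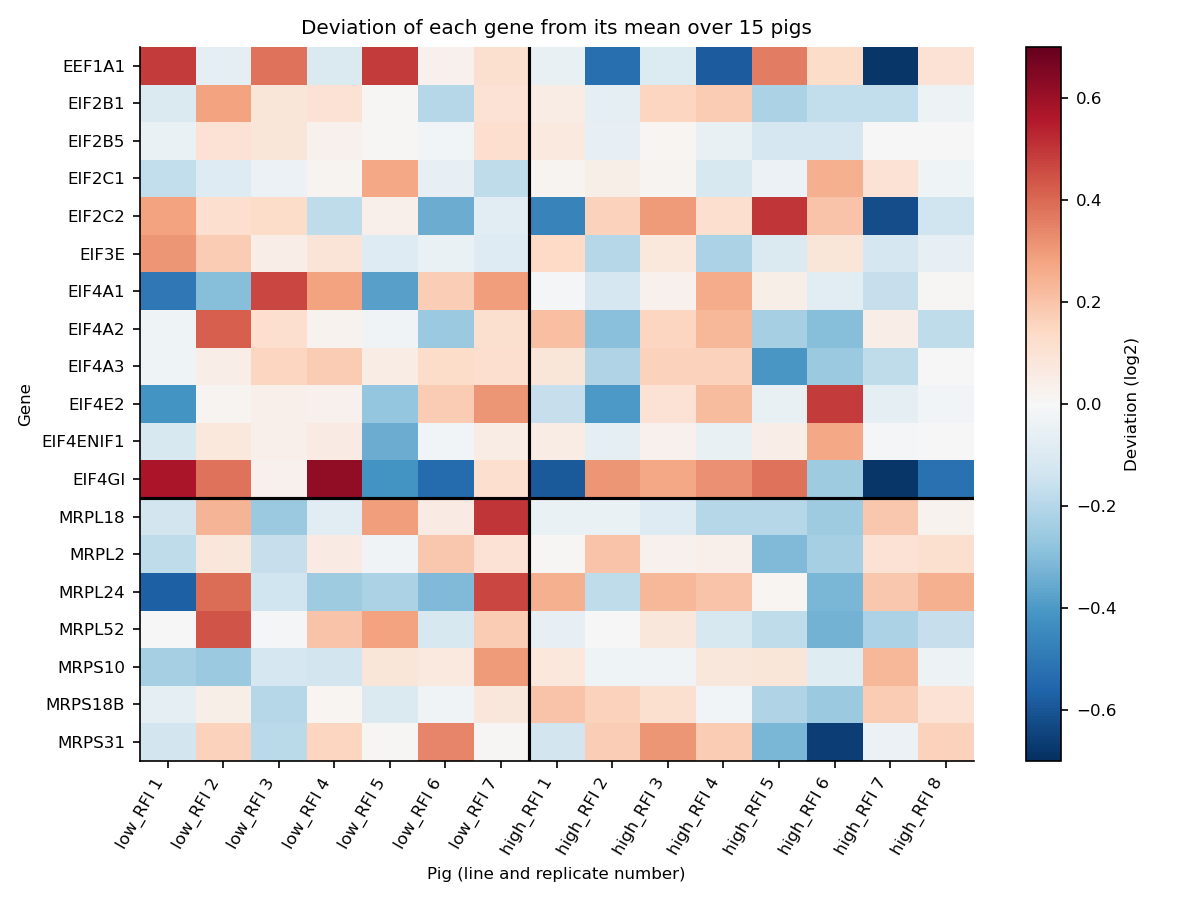
Deviation of each of the 19 genes (rows, log2 units) from its mean over 15 pigs (columns, low_RFI left and high_RFI right of the line); red is above and blue below the mean. High_RFI replicate 6 is below the mean for all 7 mitochondrial genes and low_RFI replicate 7 is above or at it for all 7.

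Correlations between genes across pigs were mostly positive within the mitochondrial ribosome. Over the 15 pigs the median correlation was 0.41 over the 21 pairs of mitochondrial genes, 0.17 over the 36 pairs of the 9 cytosolic factors and 0.11 over the 63 pairs between them, against 0.004 over all pairs of tested gene names. These medians are descriptions: all genes share the arrays and their scaling, and the differences between medians were not tested. Within array files 1 to 8 they were 0.41, 0.20 and -0.024, and within files 55 to 62 they were 0.57, 0.031 and 0.22.

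Of all 171 pairs of the 19 genes, 3 correlations passed a permutation test after adjustment over the pairs. EIF2B1 and EIF4A2 had r = 0.85 (permutation p = 9e-05, adjusted p = 0.0154) and rho = 0.83 (permutation p = 0.00025, adjusted p = 0.0427). Without the 2 pigs farthest from the median of EIF2B1, r was 0.76; it was 0.84 and 0.68 within the runs and 0.95 and 0.75 within the low_RFI and high_RFI lines. This initiation pair therefore kept its direction in each subset of the pigs.

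The other pairs were of mitochondrial proteins and held for r but not for ranks. MRPL2 and MRPS31 had r = 0.81 (permutation p = 0.00022, adjusted p = 0.0188) and rho = 0.75 (permutation p = 0.00188, adjusted p = 0.149), with r = 0.70 without the 2 farthest pigs, 0.74 and 0.87 within the runs and 0.91 and 0.79 within the lines. MRPL2 and MRPS18B had r = 0.79 (permutation p = 0.00076, adjusted p = 0.0433) and rho = 0.65 (permutation p = 0.0103, adjusted p = 0.159), with r = 0.61 without the 2 farthest pigs, 0.72 and 0.84 within the runs and 0.72 and 0.88 within the lines. Each pair joins a large-subunit with a small-subunit protein.

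The lowest correlations crossed the groups, and none passed the adjustment. EIF3E and MRPS10 had r = -0.68 (permutation p = 0.00526, adjusted p = 0.0995) and rho = -0.71 (permutation p = 0.00395, adjusted p = 0.149), with r = -0.46 without the 2 farthest pigs and -0.65 and -0.74 within the runs. Within the lines it was -0.88 in low_RFI and -0.31 in high_RFI pigs. EEF1A1 and MRPS18B had r = -0.62 (permutation p = 0.0131, adjusted p = 0.168) and rho = -0.68 (permutation p = 0.00641, adjusted p = 0.149), with r = -0.68 without the 2 farthest pigs and -0.55 and -0.66 within the runs. Within the lines it was -0.72 and -0.56.

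**Figure D4:**
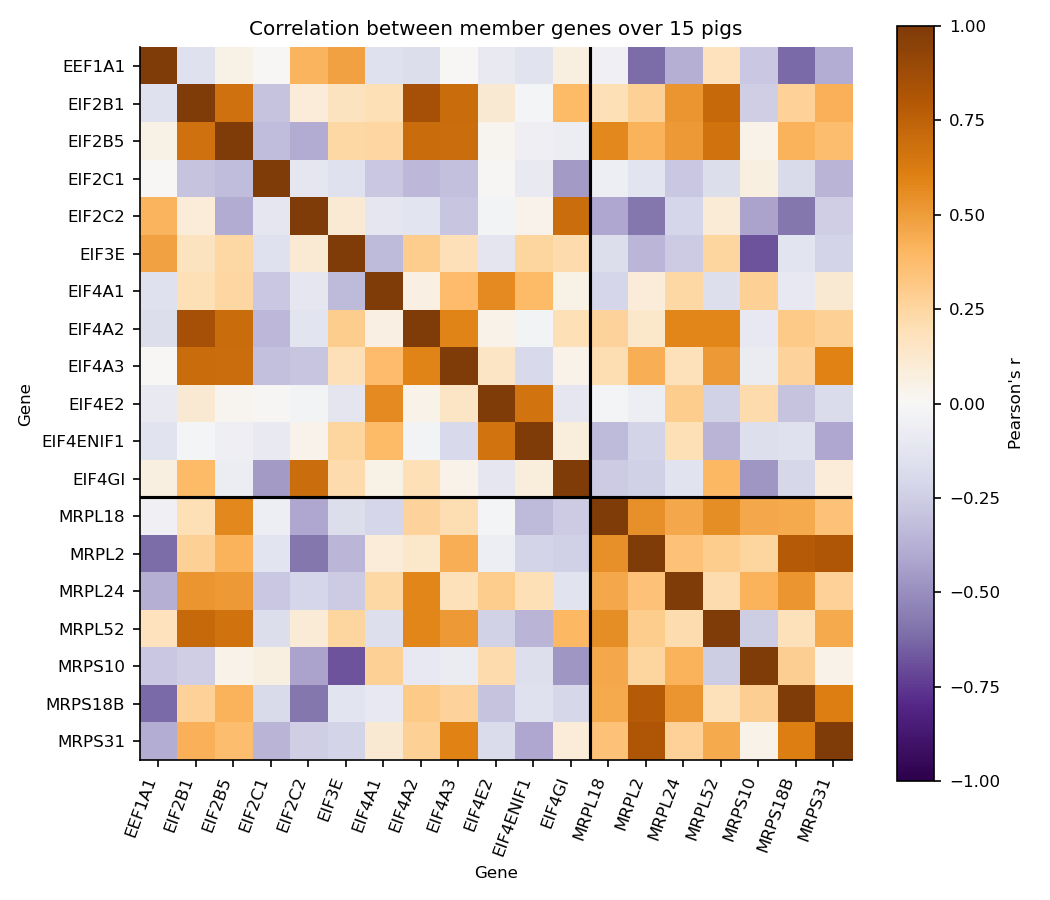
Pearson's r between the levels of the 19 genes over 15 pigs (brown above 0, purple below 0; the lines part cytosolic from mitochondrial genes). The mitochondrial block at the lower right has 20 of 21 pairs above 0, and MRPL2 with MRPS31 (r = 0.81) and EIF2B1 with EIF4A2 (r = 0.85) are the darkest cells off the diagonal.

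A second comparison used the numbers in the array files, which fall in runs of 1 to 8 (n = 8 arrays) and 55 to 62 (n = 7 arrays), each with both lines. What the runs stand for is not in the labels. With line as a covariate, limma called 2.24% of all tested probes between the runs, and 0 of 62 cytosolic and 0 of 17 mitochondrial probes. At an unadjusted p under 0.05 there were 14 cytosolic and 0 mitochondrial probes, against 19.7% of all probes.

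Of those 14 cytosolic probes, 10 belonged to EIF4A2, 2 to EIF2B1, 1 to EIF4A3 and 1 to EIF4GI. The dim EIF4GI probe had the largest run difference of any member, -0.50 ± 0.19 (SE, limma adjusted p = 0.163). All 13 EIF4A2 probes were lower in the arrays numbered 55 to 62, by -0.37 to -0.18 on the log2 scale, with limma adjusted p from 0.0659 to 0.479. With slide as a random block, 1 of them, at base 1329, was called (-0.37, limma adjusted p = 0.0474). The share of all tested probes called with that block is not given here, so this call has no background to be set beside. All 14 EIF3E probes were lower in files 55 to 62 as well, by -0.18 to -0.010, with adjusted p from 0.288 to 0.970 in the fit without that block. EEF1A1 probes went both ways, from -0.035 to 0.17. In all, 44 of 62 cytosolic probes were lower in files 55 to 62, against 57.6% of all probes.

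**Figure D5:**
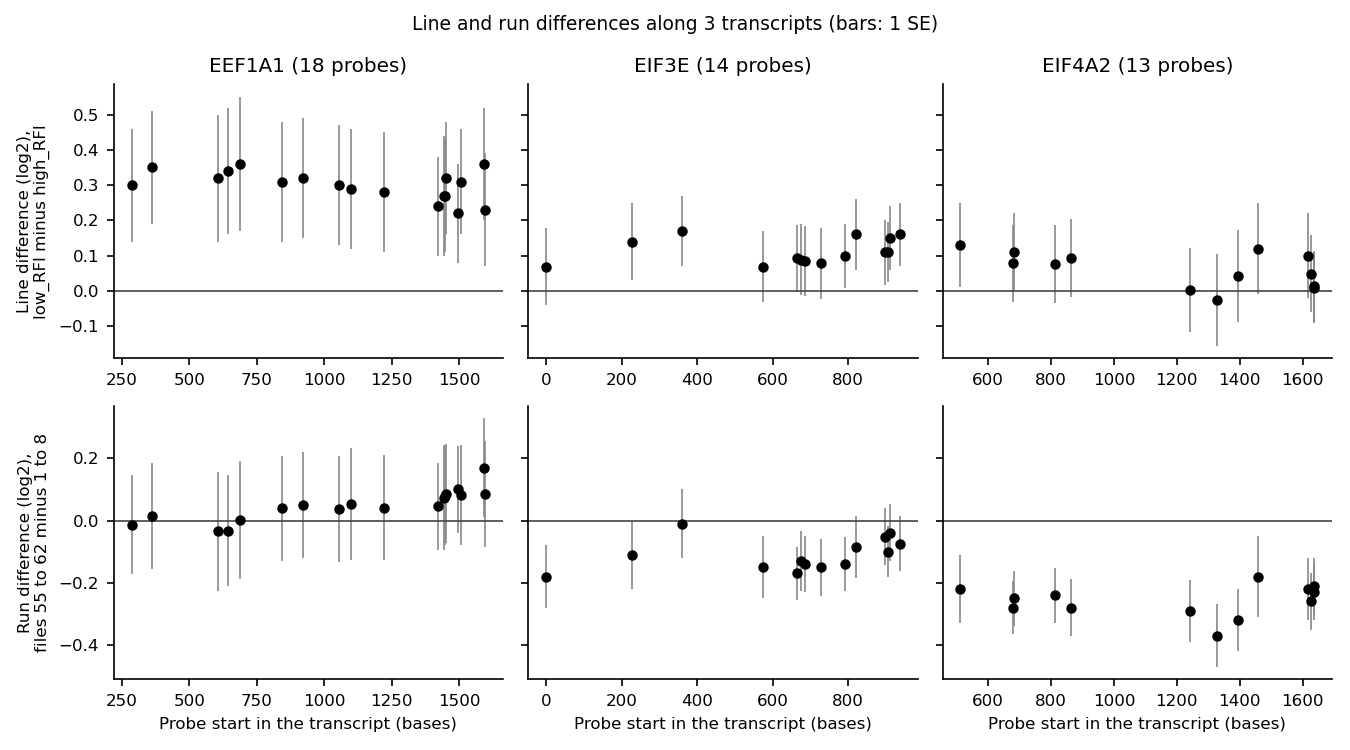
Line difference (upper row, low_RFI minus high_RFI) and run difference (lower row, files 55 to 62 minus 1 to 8) of each probe of EEF1A1, EIF3E and EIF4A2 against its start in the transcript in bases, in log2 units with bars of 1 SE. The EEF1A1 line difference is above 0 along the whole transcript, and the EIF4A2 run difference is between -0.37 and -0.18 along its whole length.

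Whether the line difference itself differed between the runs was tested with an interaction term. Limma called 0% of all tested probes and none of the 79 members, whose smallest adjusted p was 0.879; at an unadjusted p under 0.05 there were 3 members, against 5.66% of all probes. MRPS10 was one of them, at -0.21 in files 1 to 8 and 0.10 in files 55 to 62 (limma adjusted p = 0.88).

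Other genes of translation were looked up from a list of 82 symbols of regulators, release factors, mitochondrial translation and aminoacyl-tRNA synthetases, together with the mitochondrial synthetases on the array. Of these, 14 were measured, and limma called 0 of 14 between the lines, against 0% of all tested probes, with 0 at an unadjusted p under 0.05, against 6.67%. EIF4EBP1, the repressor that holds EIF4E, differed by -0.26 ± 0.14 (SE, adjusted p = 0.795), and MKNK1, a kinase of EIF4E, by -0.10 ± 0.079. The measured genes listed under mitochondrial translation outside the MRPL and MRPS names went both ways. CHCHD1 differed by 0.17 ± 0.092 (limma adjusted p = 0.797), TFB1M by 0.12 ± 0.090 and DAP3 by -0.071 ± 0.091. The median over the 14 was -0.044, and 6 of 14 were higher in low_RFI pigs, against 53.7% of all gene names.

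A further 51 probes name a translation factor or mitochondrial ribosomal protein only in their description, and 47 of them passed the filter. Limma called 0 of these 47 between the lines, against 0% of all tested probes, and 1 (2.13%) had an unadjusted p under 0.05, against 6.67%. Of the 47, 29 were higher in low_RFI pigs (61.7%), against 53.9% of all probes. Their differences ran from -0.91 to 0.29, with a median of 0.090. Between the runs, 1 of the 47 was called (limma adjusted p = 0.0307), against 2.24% of all probes.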

How the data were processed

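Total RNA (150 ng per pig) was labelled with Cy3 and hybridised to 15 arrays, per the labels. Per the file headers, the deposited scanner values are intensity signals from Feature Extraction 10.7.3.1 (protocol GE1_107_Sep09), already background-subtracted and not normalized between arrays; its flag columns mark other properties of the spots, such as well above background. The authors' deposited table holds log2 values, for which R 2.10.0 is named in the submitters' processing notes. On the files it equals log2 of the processed signal, centred per array on the median of 29364 spots (largest difference 4.93e-08), and it served as an alternative.

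Control spots and non-uniform spots were left out, and spots of a probe were averaged. Probes well above background on at least 7 arrays, with at least 4 values per line, were tested (31984 probes). limma 3.58.1 in R 4.3.3 (statmod 1.5.0) was fitted over all of them, two-sided, with Benjamini-Hochberg adjustment, and tested on simulated data. The 75th-percentile signal ran from 318.8 to 439.8 and no non-control spot was saturated; the number of arrays limits the precision. Correlations used 100000 permutations of pigs.

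The members and lists were chosen with earlier results of these data known. Named were, by group, the 6 genes of smallest p in each direction, the genes of largest and smallest SD over pigs, genes without overlap and set role genes. Correlation tests, the reduced cytosolic group and the probes named by description were chosen after seeing the data. Alternatives were other background corrections, scalings, filters, blocks, weights and fits. Gene names are the array design's; symbols were updated through RefSeq's table of Sscrofa11.1, and no coordinates are given because the array files name no build.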

Additional observations from a re-analysis of the deposited data

Results flagged for a closer look

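EIF4ENIF1, the EIF4E transporter, had a pig standing apart from its line in both lines. In low_RFI replicate 5 its level was -0.42, while the other low_RFI pigs lay between -0.18 and 0.0039; the gap was 0.569 of the line's range, against Dixon's critical value of 0.568. In high_RFI replicate 6 its level was 0.20, while the other high_RFI pigs lay between -0.14 and -0.016; the gap was 0.638 of the range, against 0.526. Chance gives about 1 such value in 20 groups, and 46 groups were examined.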

How the results depend on the processing

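No member was called between the lines under any of the 16 alternatives or on leaving out any pig. The median difference of the cytosolic genes lay between 0.041 and 0.10 over 16 alternatives. Over 15 alternatives each it lay between 0.0035 and 0.065 for mitochondrial genes, 0.075 and 0.14 for the large subunit, and -0.076 and -0.027 for the small subunit. Leaving out 1 pig gave 0.047 to 0.10, -0.027 to 0.047, 0.049 to 0.13 and -0.095 to -0.040; the mitochondrial median was -0.014 without low_RFI replicate 6, -0.027 without high_RFI replicate 5 and -0.016 without high_RFI replicate 6.

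Of 284 gene values under those alternatives, 281 kept their direction and 0 passed the threshold. EIF4GI turned to -0.085 with normexp background correction, which moved the median of all probes by -0.078. EIF2C2 turned to 0.032 and EIF4A1 to -0.019 with slide as a fixed block. On leaving out 1 pig, EIF2C2 ranged from -0.10 to 0.059, EIF4A1 from -0.071 to 0.091, EIF4E2 from -0.091 to 0.036 and MRPL2 from -0.027 to 0.047, each on both sides of 0. EIF4GI had no value when all 15 arrays had to be well above background. The cause of these changes was not tested.

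Between the runs, EIF4A2 gave 1 called probe with slide as a random block (limma adjusted p = 0.0474) and 2 at an adjusted p under 0.10, against 0 in the reported fit. The shares of all tested probes called at these settings are not given here, so these counts have no background to be set beside.

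Whether replicate numbers pair the pigs is not in the labels. Same-numbered pigs' deviations correlated between -0.012 and 0.27, and 1 of 7 numbers correlated best with its own. Such correlations cannot show whether the pigs were paired by design. With the replicate number as a block, 0 probes were called and the medians were 0.076, 0.033, 0.11 and -0.060.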
